A study of Mus musculus with 8 samples.

Results

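The angiopoietin and TIE receptor system was followed at the chromatin of its 4 genes, Tek, Tie1, Angpt1 and Angpt2, in sorted FLK1+ cells of mouse embryoid bodies, grown for 4 days from aggregated stem cells. A region belonged to a gene if that gene was the protein-coding gene whose span lay nearest to the region's midpoint, inside it or within 100 kb. This gave 52 of the 168842 regions in the table, of which 18 belonged to Tek, 8 to Tie1, 17 to Angpt1 and 9 to Angpt2, and all 52 passed the filter on low values. ATAC-seq, which reads accessibility from where a transposase can insert, was carried out on 50000 sorted live cells per library, with 2 libraries in each of 4 groups. The gates were set on a pair of surface receptors, FLK1, the VEGF receptor encoded by Kdr, and PDGFRalpha, encoded by Pdgfra. WT DP (PDGFRalpha+FLK1+) and WT SP (PDGFRalpha-FLK1+) came from the wild-type A2lox.Cre line with no treatment listed. KO DP was the PDGFRalpha+FLK1+ gate of an Etv2 knockout line with no treatment listed. OE SP was the PDGFRalpha-FLK1+ gate of the iETV2 line, given doxycycline at 2 µg/ml from day 2.5 to induce Etv2. Etv2 is an ETS-family transcription factor required for vessels and blood. Line and Etv2 genotype change together in the KO comparison, and line, transgene and doxycycline in the OE comparison, and cannot be told apart. Nothing in the labels tells whether replicate libraries are separate cultures. The p-values thus rest on the spread of these libraries alone, and that spread may be technical.

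TIE2, the product of Tek, is a receptor tyrosine kinase of endothelial cells and some blood cells. Its ligand ANGPT1 activates it and comes largely from mesenchymal and heart muscle cells around the vessels, while ANGPT2, made by endothelial cells themselves, acts as a weaker, context-dependent ligand that can oppose ANGPT1. TIE1 is the related receptor that pairs with TIE2 and tunes its signal. Chromatin accessibility at these genes is not a measure of their transcripts.

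Tek and Tie1, 2 of the 4 genes, had an entry in the RefSeq promoter table (GRCm38.p6, the assembly of mm10), and in each a region over the start site rose with Etv2 induced. The 250 bases before each start site are shown because the results below turn on these sites. Capitals mark the ETS core GGAA, read on both strands (TTCC is the same word on the other strand). The Tek promoter is chr4:94739039-94739288 on the plus strand and the Tie1 promoter is chr4:118489850-118490099 on the minus strand, each printed 5′ to 3′ along the gene.
Tek: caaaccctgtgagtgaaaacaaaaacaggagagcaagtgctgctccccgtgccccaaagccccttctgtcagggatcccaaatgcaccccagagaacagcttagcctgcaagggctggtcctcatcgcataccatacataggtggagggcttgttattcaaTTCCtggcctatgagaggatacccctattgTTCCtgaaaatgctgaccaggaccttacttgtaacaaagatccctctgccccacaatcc
Tie1: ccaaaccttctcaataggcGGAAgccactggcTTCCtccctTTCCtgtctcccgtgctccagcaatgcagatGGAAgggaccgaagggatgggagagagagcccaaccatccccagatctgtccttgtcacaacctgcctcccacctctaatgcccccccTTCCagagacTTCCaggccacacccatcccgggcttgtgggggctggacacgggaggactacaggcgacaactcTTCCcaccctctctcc
The Tek sequence held 2 matches to GGAA, starting 89 and 59 bases before the start site, and the Tie1 sequence held 7, the nearest starting 16 bases before it. At least 1 match was present in 93.45% of the 32851 RefSeq promoters of the same length, at least 2 in 76.8% and at least 7 in 3.82%. The longer ETS word CCGGAA, present in 12.03% of promoters, and the GATA word AGATAA, present in 9.99%, were in neither sequence. The forkhead word AAACA, present in 46.4% of promoters, was in the Tek sequence at 2 places and not in that of Tie1. The Tek region that rose, chr4:94739199-94739599, holds only the last part of the Tek sequence, without these 2 places. That of Tie1, chr4:118489816-118490216, holds all of the Tie1 sequence. Bases of both regions past the start site were not searched.

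Values are the deposited normalized reads per region, each region being 401 bp wide, and a change is a difference of log2(value + 5), which understates the changes of low regions. Calls required p below 0.05 in limma after Benjamini-Hochberg adjustment across the 167573 regions that were tested. Reads in regions ran from 12477601 to 18853733 per library, and the median region held 27 to 42 reads, so regions near that level could show only large changes. Etv2 served as the check of genotype: its region inside the gene, chr7:30634628-30635028, held, over the 2 libraries of a group, 1 read in KO DP, 1260 in WT DP, 964 in WT SP and 1074 in OE SP. At Kdr, the receptor gene shared by both gates, 8 of 43 regions rose and 4 fell from WT DP to WT SP. At Pdgfra 2 of 28 rose and 4 fell. Of all regions tested, 6.2% rose and 8.12% fell. Of the OE SP libraries, replicate 2 was higher than replicate 1 in 39 of the 52 member regions and in 110603 of all 167573 regions tested, with a median difference of 0.26 and 0.20 on the log2 scale.

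Summed over all its regions, Tek was lowest in KO DP and highest in OE SP. The KO DP libraries summed to 269.5 and 275 normalized reads. Those of WT DP reached 426 and 437, those of WT SP 750.1 and 799, and those of OE SP 1662 and 2486. No 2 groups overlapped. Tek lies in a stretch of chromosome 4 that was lower in KO DP as a whole, taken up below. The part of that stretch in the KO DP sum was not tested. The Tie1 sums followed the same order, from 331 and 338 (KO DP) through 424 and 340.4 (WT DP) and 454 and 489.7 (WT SP) to 722 and 1129 (OE SP), although KO DP and WT DP nearly met. Angpt1 spanned a narrower range, from 573 and 637 (KO DP) through 692 and 670.1 (WT DP) and 718 and 739 (WT SP) to 853 and 895 (OE SP). Angpt2 had the opposite order, from 807 and 789 (KO DP) down to 376 and 481 (OE SP), with 660.1 and 672 (WT DP) and 664 and 647 (WT SP) between, and its WT DP and WT SP libraries overlapped. That order followed 1 Angpt2 region, chr8:18711668-18712068, with means of 483 (KO DP), 409 (WT DP), 336 (WT SP) and 103 (OE SP). Of the 9 Angpt2 regions, 3 were called higher and 4 lower in OE SP than in WT SP. All 9 are shared with Mcph1, as given below. With 2 libraries against 2 an exact permutation test of such a sum cannot go below p = 0.333, so the sums are given as a description.

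**Figure D1:**
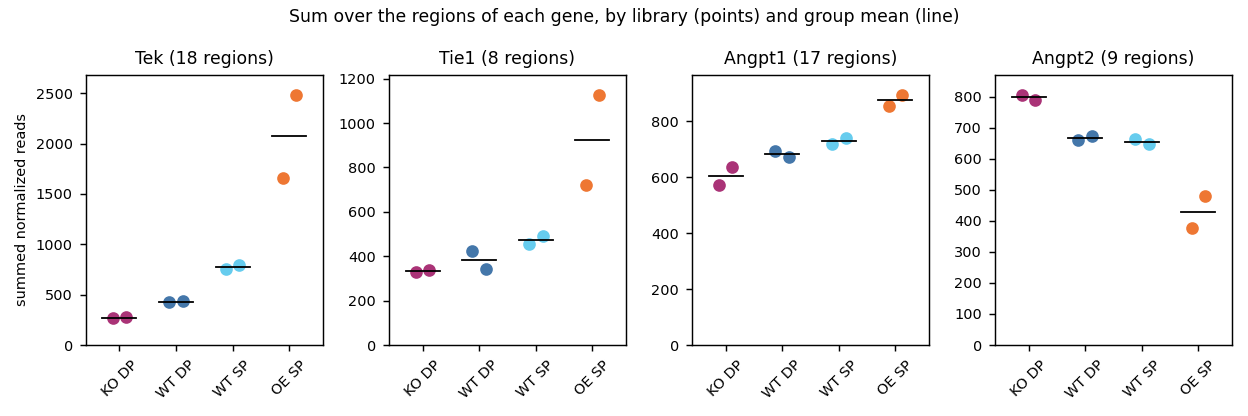
Summed normalized reads over the regions of each gene (y axis, from 0) in each of the 8 libraries (points) with the group mean (line), for KO DP, WT DP, WT SP and OE SP. Tek reached 1662 and 2486 in the OE SP libraries against 269.5 and 275 in KO DP, whereas Angpt2 was lowest in OE SP at 376 and 481. The order of the Angpt2 sums followed 1 region, chr8:18711668-18712068.

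Setting WT SP against WT DP shows how the system differs between FLK1+ cells without and with PDGFRalpha in 1 line. Both receptor genes were more open at their start sites in WT SP, and Tek also at 5 further sites, whereas Angpt1 and Angpt2 changed in both directions or at few sites. Of the 52 regions 10 rose (19.2%) and 2 fell (3.85%), against 6.2% and 8.12% of all regions tested. The 2 groups did not overlap in 31 regions that were higher and 9 that were lower in WT SP, against 40.5% and 26.9% of all regions. The median change of the 52 was 0.38, against 0.11 for all regions. A higher value can come from more cells with the site open or from a more open site in each cell, which bulk libraries cannot tell apart.

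At Tek, 6 of 18 regions rose and none fell. The start-site region, chr4:94739199-94739599, stood at 20.4 and 31.4 normalized reads in WT DP and at 112 and 117 in WT SP. The groups lay far apart, at 25.9 ± 7.81 and 114 ± 3.55 (mean ± SD, n = 2), a rise of 4.42-fold (log2 change 1.97, SE 0.24, adjusted p = 0.000559). Inside the gene, the region 7.19 kb past the start site measured 47.6 and 43.1 in WT DP and 87.5 and 107 in WT SP (log2 change 1.02, SE 0.23, adjusted p = 0.0138). The region 13.4 kb past it measured 16.5 and 22.5 against 43.8 and 44.6, a log2 change of 1.02. The region 26.1 kb past it was higher by a smaller margin, with 45.6 and 47.6 in WT DP and 79.4 and 80.3 in WT SP (log2 change 0.72). Before the gene, the region 15.8 kb ahead of the start site rose by a log2 change of 1.44, and the remaining call also lay ahead of the gene. The 12 Tek regions that were not called ran from -0.30 to 0.88.

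At Tie1, 1 of 8 regions rose and none fell. The region at its start site, chr4:118489816-118490216, measured 5.82 and 8.98 in WT DP and 35.6 and 26.8 in WT SP, so the groups did not overlap (log2 change 1.55, SE 0.27, adjusted p = 0.00338). These were low levels, 16 reads over both WT DP libraries and 62 over both WT SP libraries. The most open Tie1 region, 24.1 kb past the start site and beyond the far end of the gene, measured 244 and 195 in WT DP and 278 and 290.5 in WT SP and was not called (adjusted p = 0.277).

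At the ligand genes the calls were few. In Angpt1, 1 of 17 regions rose and 2 fell. The region 192.1 kb from the low-coordinate end of the gene, chr15:42616603-42617003, fell from 69.9 and 67.4 in WT DP to 34.6 and 29.7 in WT SP (log2 change -0.99, SE 0.22, adjusted p = 0.0122). A further one at chr15:42664487-42664887 fell by 0.76, and that at chr15:42519711-42520111 rose by a log2 change of 0.91 from a low level, 9.71 and 8.98 to 20.4 and 23.8. In Angpt2, 2 of 9 regions rose and none fell. That nearest the high-coordinate end, chr8:18739118-18739518, measured 42.7 and 53.9 in WT DP and 97.7 and 92.2 in WT SP (log2 change 0.91, SE 0.22, adjusted p = 0.0161). That at chr8:18708716-18709116 rose from 9.71 and 7.19 to 24.4 and 20.8. All 9 Angpt2 regions also lie inside Mcph1, whose span covers them, so they cannot be given to either gene alone.

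Alternatives were run for 11 of the 12 calls of this comparison, all but the remaining Tek one, and of these only that at the Tek start site held in every alternative run, with log2 changes from 1.56 to 2.23. Calls over the 52 regions dropped on leaving out any 1 library of WT DP or WT SP, and so did calls over all regions tested. Rescaling on the 10000 highest regions gave 6 rises and 4 falls against 4.3% and 12.4% of all regions, median-of-ratios rescaling 7 and 2 against 5.58% and 9.86%, and edgeR 9 and 3 against 6.45% and 11.8%.

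**Figure D2:**
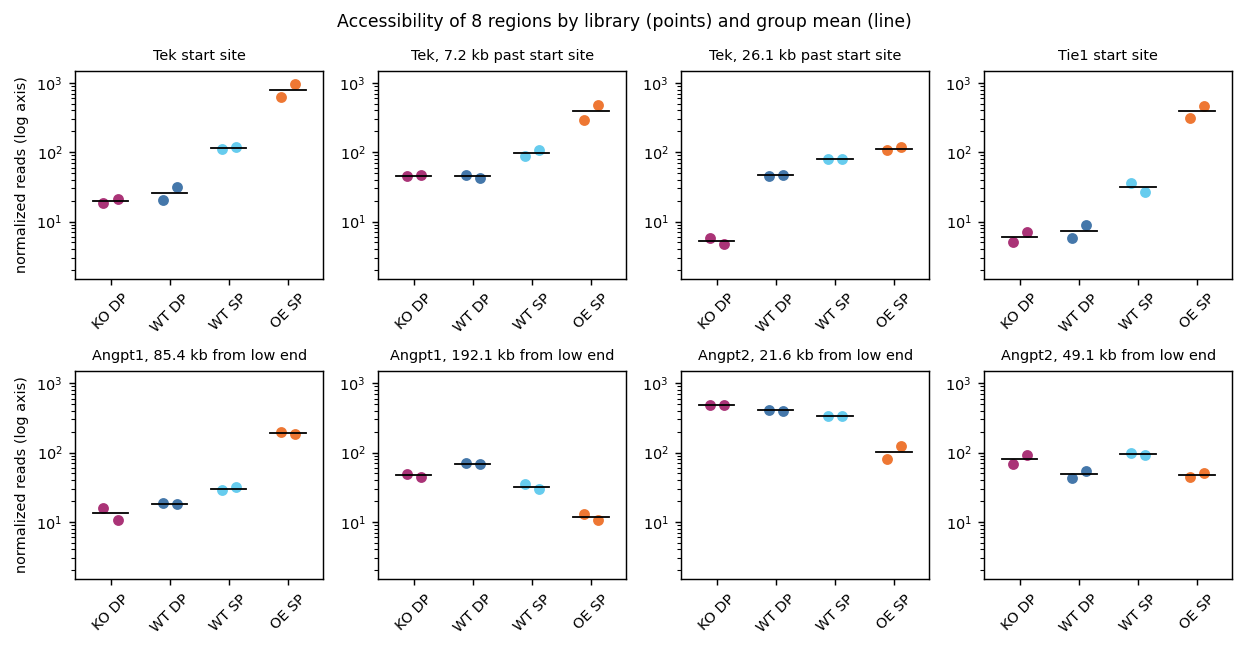
Normalized reads (y axis, log scale) of 8 regions in each library (points) with the group mean (line), for KO DP, WT DP, WT SP and OE SP. The start-site regions of Tek and Tie1 stand highest in OE SP, at 627 and 947 and at 312 and 461, and the Tek region 26.1 kb past the start site stands lowest in KO DP, at 5.88 and 4.75.

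Setting KO DP against WT DP shows what differs at these genes in PDGFRalpha+FLK1+ cells of the knockout line. Of the 52 regions none rose and 2 fell (3.85%), both in Tek, against 1.72% and 2.21% of all regions tested. The groups did not overlap in 9 regions that were higher and 23 that were lower in KO DP, against 23.5% and 34.4% of all regions. In limma 4 regions were higher and 15 lower at an unadjusted p below 0.05, against 32475 of all 167573 regions in either direction. Neither edgeR nor DESeq2 called a rise among the 52. Falls numbered 3 under median-of-ratios rescaling and 3 under rescaling on the 10000 highest regions, where 2.58% and 3.12% of all regions rose and 2.31% and 2.64% fell, and 2 with edgeR, where 3.62% rose and 2.78% fell. The start sites of both receptors were already at low levels in WT DP and were not called lower in KO DP. The Tek start-site region measured 18.5 and 21.4 in KO DP against 20.4 and 31.4 in WT DP (adjusted p = 0.560), and that of Tie1 measured 5.04 and 7.13 against 5.82 and 8.98 (adjusted p = 0.802). With 16 reads over both WT DP libraries at the Tie1 site, a moderate loss was not detectable at this depth.

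One Tek region lost nearly all its reads in the knockout line. It lies inside the gene 26.1 kb past the start site, at chr4:94765177-94765577, and measured 45.6 and 47.6 in WT DP and 5.88 and 4.75 in KO DP. The recovered reads were 100 over both WT DP libraries and 11 over both KO DP libraries, an 8.77-fold lower mean (log2 change -2.32, SE 0.21, adjusted p = 8.05e-05). In the other groups the region stood at 79.4 and 80.3 (WT SP) and at 106.5 and 119.6 (OE SP), so KO DP lay below every library of the other 3 groups. The other call was at chr4:94848818-94849218, 109.7 kb past the start site, which fell from 64.1 and 55.7 to 31.1 and 13.1 (log2 change -1.34, SE 0.32, adjusted p = 0.0378). Its 2 KO DP libraries differed widely, and the call was lost at pseudocount 1, at a mean of at least 30, with DESeq2, and without WT DP replicate 1 (leaving 1 call over the 52 regions), WT DP replicate 2 (1 call) or Etv2KO DP replicate 2 (1 call).

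Tek lies in a stretch of chromosome 4, from 85 to 105 Mb, that was lower in KO DP as a whole. The stretch was picked because it was lower in the knockout line in these data, so its values are a description. The 1340 other regions of that stretch had a median log2 change of -0.60 and quartiles of -0.88 and -0.34, and 20.4% of them fell, against a median of -0.07 for all regions. The 18 Tek regions had a median of -0.58, close to that of their surroundings. Relative to the surrounding median, the region 26.1 kb past the start site was still lower by 1.72 on the log2 scale, and no other region of the stretch fell as much. The region at 94848818 was lower by 0.74 relative to it, and 60 other regions of the stretch fell as much. The start-site region stood 0.31 above it. Tie1, at 118471191 to 118489849 on the same chromosome, lies outside the stretch. None of its 8 regions was called, at a median of -0.48 against -0.10 for the 9835 regions of chromosome 4 outside the stretch. The subtraction of the surrounding median is a description too, and what part the stretch had in the Tek values was not tested.

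**Figure D3:**
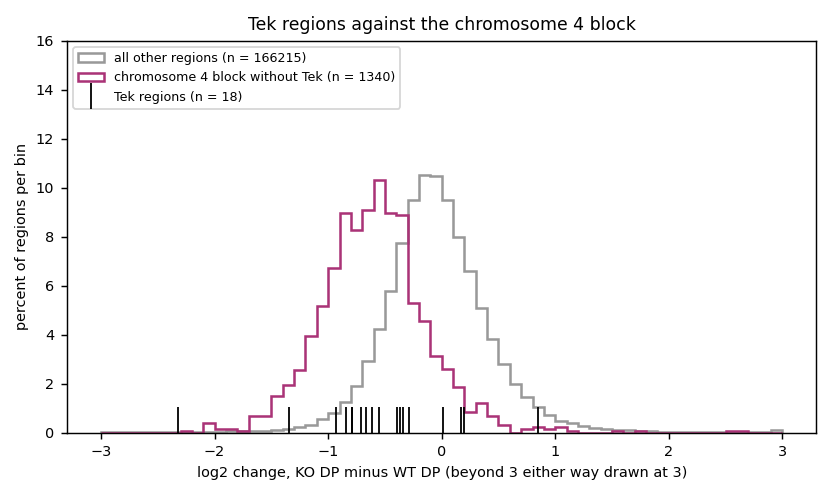
Distribution of the log2 change between KO DP and WT DP (x axis) as percent of regions per bin (y axis), for the 1340 regions of chromosome 4 from 85 to 105 Mb other than those of Tek and for all other regions, with the 18 Tek regions as black ticks. Most Tek ticks fall under the curve of the stretch, centred at -0.60, and the tick at -2.32 lies at its far left.

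The angiopoietin genes had no call in the knockout line, and neither 17 Angpt1 nor 9 Angpt2 regions passed. The Angpt1 region at the high-coordinate end of the gene, chr15:42676751-42677151, went from 67.0 and 67.4 (WT DP) to 39.5 and 38.0 (KO DP), groups that do not overlap (log2 change -0.72, adjusted p = 0.0620). Angpt2 changes ran from -0.09 to 0.66. Its most open region, chr8:18711668-18712068, went from 415 and 402 (WT DP) to 480.3 and 486 (KO DP) (log2 change 0.24, adjusted p = 0.539).

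The comparison of OE SP with WT SP shows the genes with Etv2 induced, in the same gate. Both TIE receptor genes opened strongly at their start sites, Tek also at sites along the gene, and the ligand genes had rises and falls interleaved. Of the 52 regions 18 rose (34.6%) and 13 fell (25%), against 16.6% and 31.9% of all regions tested. Without the filter on low values the 52 still had 18 rises and 13 falls, against 28835 and 53620 of 168842 regions. The groups did not overlap in 23 regions that were higher and 19 that were lower in OE SP, against 26% and 46.1% of all regions. The members had a median of 0.16 and all regions a median of -0.22. Scaling bears on this balance. After median-of-ratios rescaling the median of all regions was -0.00 and the members had 21 rises and 8 falls, against 23.3% and 25.4% of all regions. Rescaling on the 10000 highest regions gave 20 and 9 against 22% and 26.3%, and edgeR 21 and 8 against 24.5% and 24.7%. Without WT SP replicate 1 or WT SP replicate 2 there were 15 rises and 6 falls.

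The Tek start-site region measured 112 and 117 normalized reads in WT SP and 627 and 947 in OE SP, or 114 ± 3.55 and 787 ± 226 (mean ± SD, n = 2). Every OE SP library was above every other library, and the rise was 6.88-fold (log2 change 2.70, SE 0.24, adjusted p = 9.58e-06). This site held 14.8 ± 0.202% of the summed Tek reads in WT SP and 37.9 ± 0.263% in OE SP, against 5.99 ± 1.71% in WT DP and 7.32 ± 0.664% in KO DP. The Tie1 start-site region rose still more, from 35.6 and 26.8 to 312 and 461, a 12.4-fold higher mean (log2 change 3.42, SE 0.27, adjusted p = 5.44e-06). Among all regions tested, 98 had a log2 change at least as high. Its share of the summed Tie1 reads went from 6.66 ± 1.68% in WT SP to 42.0 ± 1.68% in OE SP. Both start-site calls held in every alternative run, with log2 changes from 2.40 to 3.02 for Tek and from 2.97 to 3.87 for Tie1.

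Along Tek, 8 of 18 regions rose and 4 fell. Of the rises, 1 passed the filter on low values only through OE SP, with means of 8.37 (WT DP), 7.03 (WT SP), 5.84 (KO DP) and 41.1 (OE SP). The region 7.19 kb past the start site measured 87.5 and 107 in WT SP and 292 and 481 in OE SP (log2 change 1.90, SE 0.23, adjusted p = 5.96e-05). The region 90.9 kb past it, chr4:94830015-94830415, went from 18.3 and 13.9 to 77.3 and 152 (log2 change 2.44, SE 0.31, adjusted p = 6.93e-05). It had been at 9.71 and 8.98 in WT DP. The region 26.1 kb past the start site, nearly lost in KO DP, measured 106.5 and 119.6 in OE SP against 79.4 and 80.3 in WT SP and was not called (log2 change 0.47, adjusted p = 0.0767). The falls included the region 15.8 kb ahead of the gene, which had risen in WT SP, from 46.8 and 50.6 to 11.7 and 36.8 (log2 change -1.02, adjusted p = 0.0322). Its 2 OE SP libraries lay far apart. The call was lost without WT SP replicate 1, WT SP replicate 2 or Etv2OE SP replicate 1 and after median-of-ratios rescaling. It was also lost with edgeR, with DESeq2 and with the compared groups alone. Its log2 changes ran from -1.69 to -0.36 over the alternatives. The region 134.6 kb past the start site fell by 0.77, but the call was lost in 9 of 14 alternatives, among them edgeR, DESeq2, 3 rescalings and leaving out WT SP replicate 1, WT SP replicate 2 or Etv2OE SP replicate 1 (log2 changes -0.91, -0.63 and -0.58). The region 109.7 kb past it fell by 1.02, a call lost with DESeq2 and without WT SP replicate 1 or WT SP replicate 2 (log2 changes -0.89, -0.91 and -1.13).

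At Tie1 a second region inside the gene rose, 4.37 kb past the start site at chr4:118485275-118485675, from 21.4 and 28.7 to 62.0 and 116 (log2 change 1.59, SE 0.31, adjusted p = 0.00114). The other 6 regions were not called, among them the most open one, at 247 and 416 in OE SP against 278 and 290.5 in WT SP, where the groups overlap.

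At Angpt1, 5 of 17 regions rose and 5 fell. The largest rise lay 85.4 kb from the low-coordinate end, at chr15:42509826-42510226, from 28.5 and 31.7 in WT SP to 198 and 187 in OE SP (log2 change 2.49, SE 0.23, adjusted p = 1.06e-05). That at chr15:42439155-42439555 went from 10.2 and 12.9 to 68.6 and 61.8, a log2 change of 2.09. With means of 5.12 (WT DP), 11.5 (WT SP), 2.62 (KO DP) and 65.2 (OE SP), it passed the filter on low values only through OE SP. The largest fall lay 98.8 kb from that end, at chr15:42523277-42523677, from 67.2 and 70.4 to 8.75 and 22.3 (log2 change -1.93, SE 0.29, adjusted p = 0.000233). The Angpt1 region at chr15:42616603-42617003, which had fallen from WT DP to WT SP, was lower again in OE SP at 13.1 and 10.5 against 34.6 and 29.7 (log2 change -1.15, SE 0.22, adjusted p = 0.00116). Both comparisons use the same WT SP libraries. The most open region of the gene in every group but OE SP, chr15:42674797-42675197, was not called and measured 101 and 104 in WT SP and 119.6 and 126 in OE SP (adjusted p = 0.272).

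At Angpt2, 3 of 9 regions rose and 4 fell. Its most open region, chr8:18711668-18712068, fell from 336 and 337 in WT SP to 81.0 and 125 in OE SP (log2 change -1.69, SE 0.19, adjusted p = 3.31e-05). Its mean fell from 336 to 103 and the mean Angpt2 sum from 655 to 428, and OE SP lay below all 6 other libraries. The region at chr8:18739118-18739518, higher in WT SP than in WT DP, fell from 97.7 and 92.2 to 43.8 and 51.2 (log2 change -0.93, SE 0.22, adjusted p = 0.00375). Both of its calls use the same WT SP libraries, and both were lost with DESeq2. Rises came from low levels, the largest at chr8:18729129-18729529 from 12.2 and 17.8 to 47.4 and 61.8 (log2 change 1.58, SE 0.27, adjusted p = 0.000470). The Angpt2 region at chr8:18708716-18709116 rose again, from 24.4 and 20.8 to 51.1 and 72.3.

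**Figure D4:**
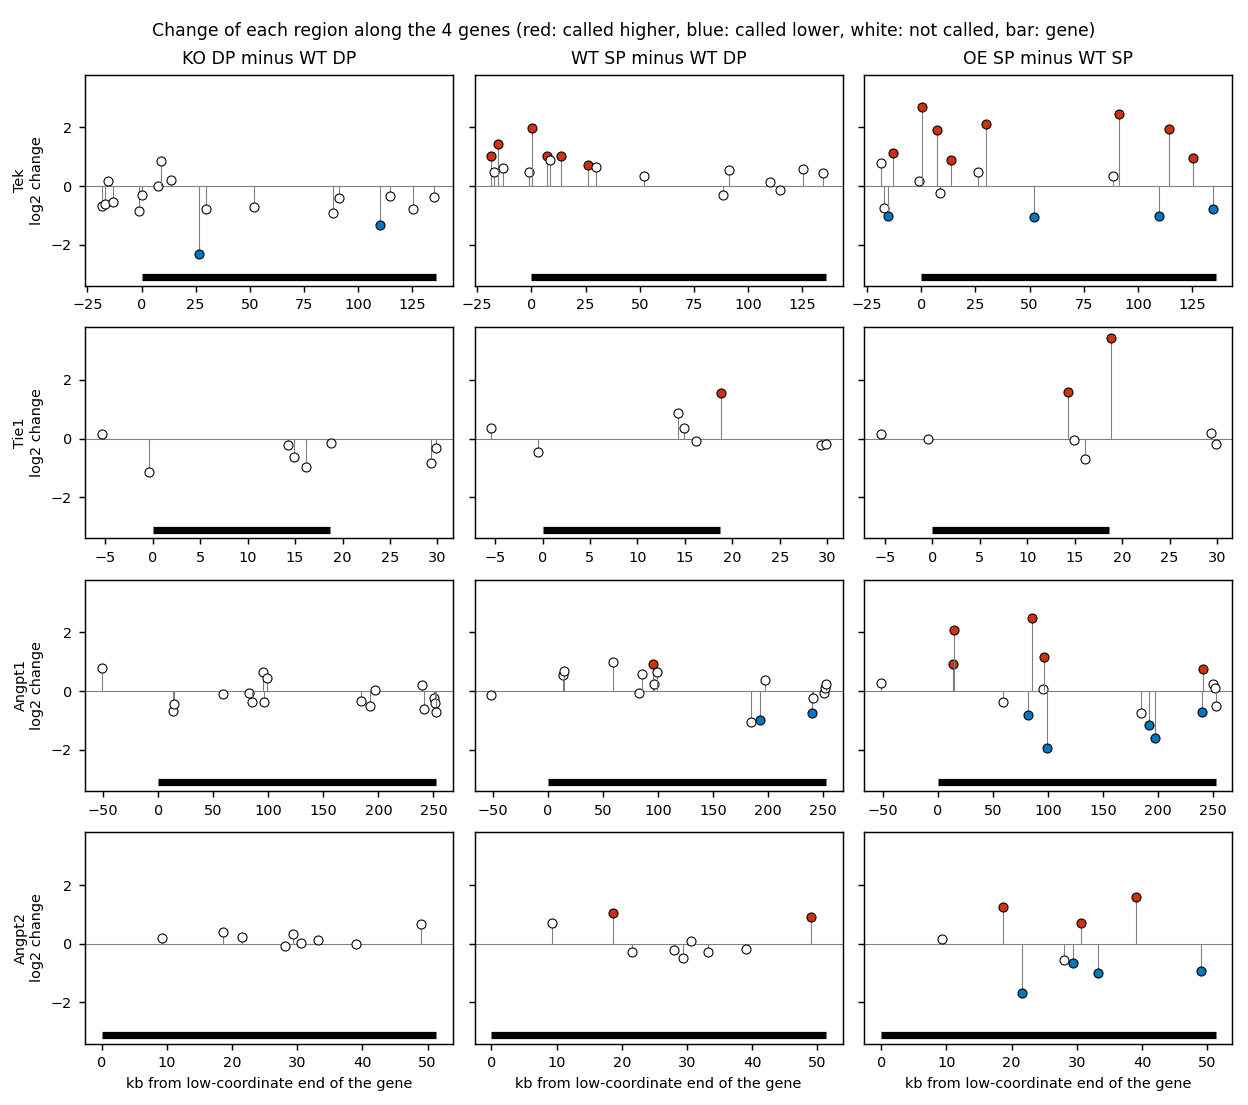
Log2 change of each region (y axis) against the distance of its midpoint from the low-coordinate end of the gene in kb (x axis), for the 4 genes in 3 comparisons, with called rises in red, called falls in blue and the gene as a black bar. Tek and Tie1 have their highest points at the start site in OE SP (2.70 and 3.42), while rises and falls alternate along Angpt1 and Angpt2.

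Marker lists of cell types did not all move alike in the induced line. Against WT SP, the OE SP sums were higher for the endothelial list, lower for the paraxial mesoderm list and overlapping for the blood list. Summed over the regions of an endothelial list (Cdh5, Pecam1, Emcn, Esam, Cldn5), the libraries lay at 4321 and 4187 in WT DP, 3806 and 3697 in KO DP, 4771 and 4833 in WT SP and 7467 and 9958 in OE SP. Of these 82 regions 32 rose and 15 fell in OE SP, against 16.6% and 31.9% of all regions. Rises outnumbered falls at Cdh5, Emcn, Esam and Cldn5, but Pecam1 had 3 rises and 5 falls. The Pecam1 sums were 919 and 1581 in OE SP against 1084 and 1173 in WT SP. A blood list (Gata1, Itga2b, Ptprc, Klf1, Spi1) stood at 3451 and 3472, 3089 and 2857, 4139 and 3981, and 3929 and 5552 in the same order of groups. A paraxial mesoderm list (Tbx6, Msgn1, Meox1) stood at 2869 and 2713, 2538 and 2396, 2447 and 2483, and 1422 and 2017. An endoderm list (Sox17, Foxa2, Cldn6, the last with no region) ranged from 2841 to 4087 over the 8 libraries and a neuroectoderm list (Sox1, Pax6, Sox3) from 4418 to 5378. In OE SP 9 of the 23 blood regions rose and 4 fell, and 2 of the 23 paraxial mesoderm regions rose and 12 fell. Of the 39 endoderm regions 9 rose and 10 fell, and of the 56 neuroectoderm regions 9 rose and 19 fell. The endoderm genes went opposite ways, with 6 rises and 1 fall at Sox17 and 3 rises and 9 falls at Foxa2. The part of cell composition in the changes at Tek, Tie1, Angpt1 and Angpt2 was not tested.

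**Figure D5:**
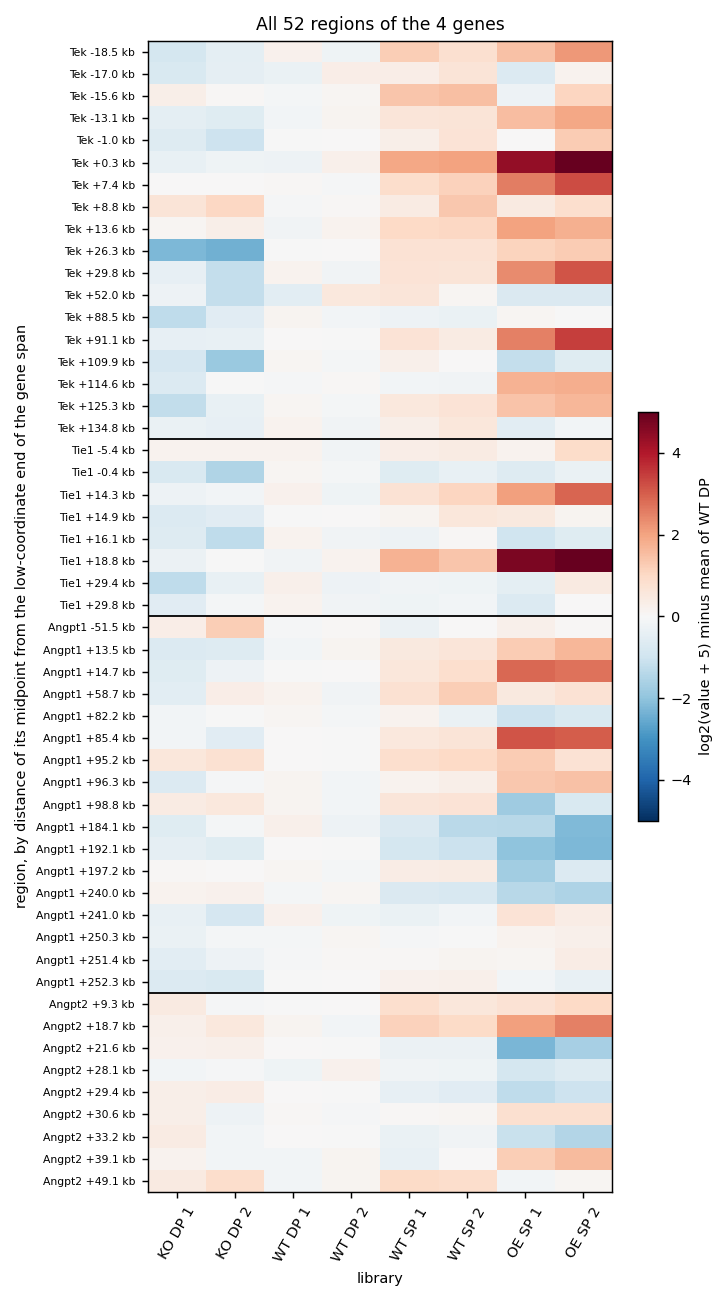
Log2(value + 5) minus the mean of the WT DP libraries (colour) for all 52 regions (rows, by distance of the midpoint from the low-coordinate end of the gene span) in the 8 libraries (columns). The darkest red cells are the Tek and Tie1 start-site regions in OE SP, and the darkest blue cells in KO DP are the Tek region 26.3 kb from the low-coordinate end.

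Over the 3 comparisons, 18 of the 52 regions were called in none. The other regions fell into the following combinations of calls, whose shares over all regions were not computed. In 5 regions both WT SP against WT DP and OE SP against WT SP rose, namely the Tek regions at, 7.19 kb past and 13.4 kb past the start site, the Tie1 start site and the Angpt2 region at 18708716. In 2 both fell, at Angpt1. Of these, chr15:42664487-42664887 lost its OE SP call with edgeR and DESeq2 and its WT SP call with DESeq2. Another 2 rose in WT SP and fell in OE SP, 1 at Tek and 1 at Angpt2. Both comparisons use the same WT SP libraries, with opposite sign, so the rise and the fall of a region are not independent. The Tek region, chr4:94723336-94723736, lost its OE SP call with edgeR, with DESeq2 and after median-of-ratios rescaling. The Angpt2 region, chr8:18739118-18739518, lost both calls with DESeq2, and its WT SP call also after rescaling on the highest regions. In WT SP only, 2 rose. At Tek 1 region rose in WT SP and fell in KO DP, and 1 fell in KO DP and in OE SP. A further 13 rose in OE SP only and 8 fell there only, by the threshold and without a test of the difference between comparisons.

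The other genes of the pathway showed no common direction. These were Angpt4, Ptprb, Svep1, Dok2, Grb7, Grb14, Shc1, Tnip2, Pik3r1, Akt1, Foxo1, Itga5, Itgb1 and Cdh5, with 216 regions, 215 of them tested. In WT SP 9 rose and 20 fell against WT DP, in KO DP 3 rose and 6 fell against WT DP, and in OE SP 57 rose and 59 fell against WT SP. Their median changes were 0.12, -0.12 and 0.01, against 0.11, -0.07 and -0.22 for all regions. The shares of all regions that rose and fell were 6.2% and 8.12% (WT SP), 1.72% and 2.21% (KO DP) and 16.6% and 31.9% (OE SP). The WT SP and KO DP counts of the list lay near those shares. In OE SP its rises lay above the share of all regions and its falls below it. Ptprb encodes VE-PTP, the endothelial phosphatase that restrains TIE2. A region inside it, chr10:116317292-116317692, fell from 191 and 206 in WT DP to 63.1 and 58.5 in WT SP and further to 11.7 and 14.5 in OE SP (log2 changes -1.63 and -1.87, adjusted p = 0.000433 and 1.81e-05). Of the 17 Ptprb regions 3 rose and 9 fell in OE SP.

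Svep1 encodes a matrix protein that binds TIE1. A region in it rose from 5.09 and 4.96 in WT SP to 70.0 and 49.9 in OE SP (log2 change 2.68), among 4 rises and 3 falls. Foxo1 is the transcription factor that TIE2 signalling through AKT keeps inactive and that drives Angpt2. It had 11 rises and 10 falls among 36 regions tested in OE SP, the strongest by adjusted p being a region 54755 bp away, from 39.7 and 23.8 to 239 and 393 (log2 change 3.12). Cdh5, VE-cadherin, the junction protein with which VE-PTP also associates, had 13 rises and 6 falls, with a region 5777 bp from the gene going from 53.9 and 57.5 to 332 and 501 (log2 change 2.77). The docking adaptor gene Dok2 had 2 rises and 3 falls, and a region 5093 bp from it fell from 70.2 and 84.3 to 13.1 and 13.1 (log2 change -2.18). In the integrin gene Itgb1 4 of 12 regions rose and none fell, and in Itga5 3 of 11 rose and 3 fell.

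Genes whose summed values ran most alike over the 8 libraries were sought among 9627 others with at least 5 regions. Those with the highest Pearson r were Itga1, Ppp1r18 and Vash1 for Tek (r = 0.996 for each), Ubox5, Rnf222 and Noxa1 for Tie1 (0.994 to 0.993), Trhde and 4932414N04Rik for Angpt1 (0.989 and 0.983) and Asb4, Col16a1 and Tenm3 for Angpt2 (0.995 to 0.994). An r above 0.95 was reached by 438 genes for Tek, 316 for Tie1, 75 for Angpt1 and 282 for Angpt2. The 8 points are 4 groups of 2 that share their scaling and the large distance of OE SP, so r is given as a description only.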

How the data were processed

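Chromatin accessibility was measured by ATAC-seq in 8 libraries, read as paired ends of 75 bp per the labels' protocols. The deposited table gives 1 value per region and library, a signal of normalized reads; per its name the authors scaled the counts before it was deposited. The tools named per the submitters' processing notes are DiffBind 3.14.1, MACS2 and Bowtie2, with genome mm10. What each did, the scaling, Tn5 shifting and duplicate handling were not stated there. All values (100%) were whole multiples of a library's step within 0.01 reads, so whole reads were recovered.

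Regions with a mean of at least 10 were fitted with limma 3.58.1 (R 4.3.3) on log2(value + 5), as 4 group means, moderated with a trend (4 residual degrees of freedom) and tested two-sided, after a test on simulated data. Alternatives were other pseudocounts, filters, scalings and fits, each library left out, edgeR 4.0.16 and DESeq2 1.42.0 on whole reads. Genes came from the RefSeq table of GRCm38.p6, which gives spans only. A region tied between genes counted for the member gene. Called log2 changes refer to regions, and exons and introns are not distinguished.

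The members and lists were chosen with earlier results of these data known. Named regions are those within 1 kb of a gene end, the highest region of each gene, and in each comparison up to 3 called rises and falls of lowest adjusted p. For pathway genes 1 region per comparison was eligible, that of lowest adjusted p if called. Others appear in counts and ranges. For each member the 3 genes most alike were named, except 1 that is not reported here. Reads are not independent molecules, so depth statements cover counting error only.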

Additional observations from a re-analysis of the deposited data

How the results depend on the processing

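Of the named regions, no call changed sign in any alternative. Of these calls, 1 of 11 for WT SP against WT DP, 1 of 2 for KO DP against WT DP and 15 of 22 for OE SP against WT SP held throughout. Member counts are given as rises and falls. Leaving out 1 library gave 1 to 3 and 0 to 0 (WT SP), 0 to 0 and 1 to 2 (KO DP) and 15 to 19 and 6 to 16 (OE SP), where a lone library is assumed to vary like the other groups. For WT SP and KO DP, calls over all regions also dropped with 1 library left out. For WT SP against WT DP, a mean of at least 30 gave 6 rises, rescaling on the 10000 highest regions 6 and 4, the compared groups alone 19 and 4, and DESeq2 4 and 1. Over all 167573 regions the compared groups alone gave 37453 rises and 25969 falls, and DESeq2 4663 and 9414. A mean of at least 30 gave 7226 rises among 97743 regions. For KO DP, falls were 1 at pseudocount 1, 4 at pseudocount 20, 1 at a mean of at least 30 and 1 with DESeq2, and the compared groups alone gave 3 rises and 11 falls. Over all 167573 regions, falls were 2643 at pseudocount 1, 5363 at pseudocount 20 and 1373 with DESeq2. The compared groups alone gave 14903 rises and 21995 falls over all regions, and a mean of at least 30 gave 2559 falls among 97743. For OE SP, a mean of at least 30 gave 11 rises, and falls were 8 with median-of-ratios rescaling, 8 with the compared groups alone, 8 with edgeR and 4 with DESeq2. Over all 167573 regions the compared groups alone gave 41942 falls and DESeq2 28779. A mean of at least 30 gave 11880 rises among 97743 regions. Among the pathway genes, leaving out 1 library gave 3 to 4 and 5 to 10 (WT SP), 0 to 1 and 0 to 1 (KO DP) and 47 to 73 and 38 to 71 (OE SP). There, rescaling on the 10000 highest regions gave 31 falls in WT SP and 6 rises in KO DP. The compared groups alone gave 38 and 36 in WT SP and 9 and 29 in KO DP. In KO DP rises were 1 at pseudocount 1, 1 at a mean of at least 30, 7 with quantile normalization, 7 with edgeR and 1 with DESeq2, and falls were 10 at pseudocount 20 and 2 with DESeq2. In OE SP a mean of at least 30 gave 33 rises and DESeq2 31 falls. A left-out library leaves fewer samples; for the others the cause was not tested. With the replicate block, member counts were 8 rises and 2 falls (WT SP), 0 and 2 (KO DP) and 18 and 14 (OE SP). Libraries with the same replicate number deviated together with r from -0.004 to 0.056 over the pairs of groups, which does not tell whether they shared a culture or a day. Replicate numbers are those of the sample titles, and the KO DP library names carry 3 and 4 instead.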
